A study of Rattus norvegicus with 12 samples.

Results

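Fos, Fosb, Fosl1, Fosl2, Jun, Junb, Jund, Atf3, Egr1 and Egr2 are immediate-early genes that code for AP-1 and Egr transcription factors. They were taken by name, as the Fos and Jun families, Atf3 and the first Egr genes, and make up 10 of the 34599 loci in the count table. Earlier results of these data were known when the members and the lists used below were chosen. Their counts beside the shares of all genes are therefore descriptions. Their transcripts were measured by RNA-seq of left ventricle from 12 male Sprague-Dawley rats, with 4 rats in each of 3 groups, 1 day after surgery. Sham rats had a thoracotomy without ligation. MI rats had the left anterior descending coronary artery ligated. In iCarP+/Light+ rats, also called treated rats here, the artery was ligated as well, the infarcted wall received an injection of Chlorella (a photosynthetic green alga), and a light-guiding patch (iCarP) was fixed to the epicardium with an adhesive gel and illuminated. Algae, patch, gel and illumination were always given together, so their parts cannot be told apart, and the iCarP+/Light- condition was not analysed here. Each library came from the tissue of 1 rat, and the labels describe the tissue as the infarct region.

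AP-1 is a dimer of basic leucine zipper proteins. A Fos protein (Fos, Fosb, Fosl1 or Fosl2) pairs with a Jun protein (Jun, Junb or Jund), while Jun proteins can also pair with each other or with Atf3. Most of these genes are transcribed within minutes of a stimulus and need no new protein for it: serum response factor (SRF) and its partners, held on CArG boxes in the promoter, are the textbook route, and the transcripts are short-lived. Fosl1, Fosl2 and Jund are usually slower or steadier than Fos. Egr1 and Egr2 are zinc finger proteins that bind GC-rich sites. In the heart these genes are known to respond to stretch, ischemia, cytokines and surgery itself, and leukocytes use the same genes on activation.

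Promoters were looked up to see which members share the short motifs of this route. The RefSeq table (GRCr8) held 7 of the 10 members, and Fos, Jun and Atf3 were not among them. In the 250 bases before the start, both strands were searched for the CArG box, the cAMP response element TGACGTCA, the AP-1 site TGANTCA and the Egr site GCGNGGGCG. The matches found do not overlap, and 1.50%, 1.59%, 6.34% and 4.29% of all 33469 promoters held them, in that order. Egr1 held 2 CArG boxes, at −105 to −96 and at −83 to −74, and Egr2 held 1 at −83 to −74, counted from the transcription start. The windows of Egr2 (chr20:21054442-21054691, minus strand), Jund (chr16:18769772-18770021, minus strand), Fosl2 (chr6:30039270-30039519, minus strand) and Junb (chr19:40080876-40081125, plus strand) are shown 5′ to 3′ because they set a member with a CArG box beside 2 with Egr sites and 1 with no match, and capitals mark the matches.
Egr2: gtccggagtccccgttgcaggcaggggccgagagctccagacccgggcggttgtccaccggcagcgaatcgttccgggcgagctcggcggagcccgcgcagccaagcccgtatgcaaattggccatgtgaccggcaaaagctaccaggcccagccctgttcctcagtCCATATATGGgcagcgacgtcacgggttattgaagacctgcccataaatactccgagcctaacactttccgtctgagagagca
Jund: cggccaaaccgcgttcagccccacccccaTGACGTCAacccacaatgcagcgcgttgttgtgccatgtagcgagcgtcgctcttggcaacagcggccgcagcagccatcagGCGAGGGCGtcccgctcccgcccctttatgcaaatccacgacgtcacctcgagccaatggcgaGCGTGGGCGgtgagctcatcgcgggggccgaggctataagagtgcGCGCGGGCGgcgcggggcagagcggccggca
Fosl2: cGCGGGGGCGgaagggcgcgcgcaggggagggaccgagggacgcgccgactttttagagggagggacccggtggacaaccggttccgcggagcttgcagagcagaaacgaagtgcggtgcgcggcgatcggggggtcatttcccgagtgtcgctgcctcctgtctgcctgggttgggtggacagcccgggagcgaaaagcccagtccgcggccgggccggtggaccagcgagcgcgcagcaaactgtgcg
Junb: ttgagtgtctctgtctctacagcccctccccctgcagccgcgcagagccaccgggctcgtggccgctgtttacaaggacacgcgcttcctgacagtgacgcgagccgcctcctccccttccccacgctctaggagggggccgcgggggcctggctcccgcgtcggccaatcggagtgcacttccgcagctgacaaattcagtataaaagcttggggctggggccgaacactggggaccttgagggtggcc
Jund held 1 cAMP response element and 3 Egr sites, Fosl2 held 1 Egr site at the far end of its window, and none of the 7 windows held the AP-1 letters. Fosb, Fosl1 and Junb had no match. These are letters in a window and say nothing of binding in these hearts.

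The libraries held 14064414 to 17136958 counted reads. Mitochondrial genes took 22.8% to 28.9% of the reads in Sham rats and 7.14% to 14.2% in the other groups. Levels are given as CPM, read counts scaled to a common library size by TMM, which allows for such differences in composition. The groups were compared with edgeR over the 15101 genes that passed a filter on low counts, and adjusted p-values cover all of them. All 10 members passed the filter, and the lowest count of any of them was 16, for Fos and for Egr2 in Sham rats. Ventricular muscle markers were present in every rat and far lower after ligation: 8 cardiomyocyte genes summed to 35393 to 39195 CPM in Sham rats, 2092 to 4475 CPM in MI rats and 2013 to 5161 CPM in iCarP+/Light+ rats. The 3 atrial markers summed to at most 59.4 CPM in any rat, and 1 of them had no count in iCarP+/Light+ rats. In such bulk tissue, a gene that rises in the cells present cannot be told apart from a larger share of cells that always express it.

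Of the 10 genes, 8 were higher in MI than in Sham rats, and Jun and Jund were near their Sham level. Against Sham, MI rats had higher Fos, Fosb, Fosl1, Fosl2, Junb, Atf3, Egr1 and Egr2 (edgeR adjusted p below 0.05), where 30.2% of all genes tested were higher and 33.6% were lower. In those 8 every MI rat also lay above every Sham rat, which held for 27.6% of all genes. The median log2 fold change of the 10 members was 1.66, beside −0.06 for all genes. With scaling by total counts alone in place of TMM, all 10 passed as higher in MI than in Sham, as did 7706 of the 15101 genes. In iCarP+/Light+ rats, 4 members rose above MI: Fosl1, Fosl2, Junb and Egr1, where 11.6% of all genes were higher and 2.01% were lower. The 6 others did not pass, and the median over the 10 was 0.50, beside 0.01 for all genes. Every iCarP+/Light+ rat lay above every MI rat for 5 members, these 4 and Jun, against 12.1% of all genes. Compared with Sham, iCarP+/Light+ rats had all 10 members higher, with 33.5% of all genes higher and 33.0% lower, and 8 of the 10 had no overlap between the rats, against 31.9% of all genes. No member was lower in any of the 3 comparisons, and by edgeR, DESeq2 and limma-voom alike 0 were lower even at an unadjusted p below 0.05. In iCarP+/Light+ against MI, the members higher at an unadjusted p below 0.05 numbered 7 with edgeR, 6 with DESeq2 and 7 with limma-voom. The share of all genes past that unadjusted threshold was not counted, so these numbers have no baseline and cannot be set beside the 11.6%. The MI rats serve in both of the first comparisons, so the values of the comparisons are given side by side and are not independent.

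**Figure D1:**
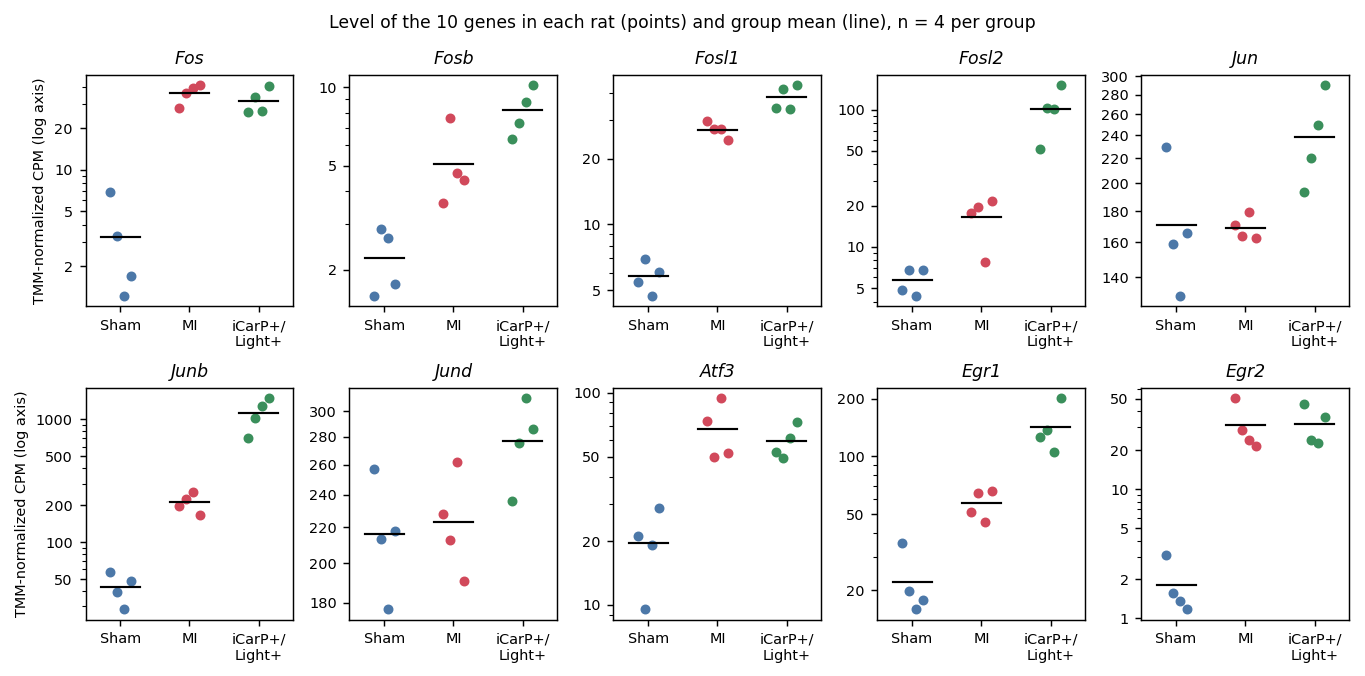
Level of each member in each rat, in TMM-normalized CPM on a log axis, with points for rats and a line for the group mean of 4 rats. Fosl2 and Junb climb from Sham to MI to iCarP+/Light+, Fos and Egr2 stand at like levels in both ligated groups, and Jun and Jund span a narrow range in all 3.

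Fos (ENSRNOG00000008015, chr6:109300433-109303299, rn6, plus strand), the prototype of the family, was low in Sham rats. Rats 1, 2, 3 and 5 of that group had 6.87, 3.28, 1.21 and 1.69 CPM. MI rats 1, 3, 4 and 5 had 28.1, 36.2, 39.3 and 41.2 CPM, and iCarP+/Light+ rats 1, 2, 4 and 5 had 26.1, 33.6, 26.6 and 40.9 CPM. Both ligated groups lay far above Sham and overlapped each other. MI exceeded Sham 11.0-fold (log2 fold change 3.46, SE 0.40, adjusted p = 7.07e-06 in edgeR), and iCarP+/Light+ differed from MI by −0.19 (SE 0.34, adjusted p = 0.787 in edgeR). Sham rat 1 held the highest level of its group, and without it the log2 difference of MI from Sham was 4.12.

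Fosb (ENSRNOG00000046667, chr1:80214494-80221710, minus strand), the Fos relative with the lowest level per length in the ligated groups, had 1.59, 2.87, 2.66 and 1.77 CPM in Sham rats 1, 2, 3 and 5. It had 3.59, 7.66, 4.70 and 4.41 CPM in MI rats 1, 3, 4 and 5 and 6.32, 7.31, 8.81 and 10.2 CPM in iCarP+/Light+ rats 1, 2, 4 and 5. All ligated rats were above Sham, and MI rat 3 reached into the range of the treated rats. The log2 fold change was 1.19 (SE 0.29, adjusted p = 0.00254 in edgeR) for MI against Sham and 0.68 (SE 0.27, adjusted p = 0.128) for iCarP+/Light+ against MI. Without MI rat 3 the second difference was 0.94 and passed the threshold.

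Fosl1 (ENSRNOG00000020552, chr1:220826560-220835066, plus strand) encodes Fra-1, a Fos protein without the transactivation domain of Fos. Its rats were tightly grouped. Sham rats had 5.42, 6.96, 4.71 and 6.04 CPM, MI rats 29.6, 27.3, 27.2 and 24.4 CPM, and iCarP+/Light+ rats 34.1, 41.8, 33.9 and 43.5 CPM, each in the order of rat numbers used above. The 3 groups did not overlap. MI exceeded Sham 4.68-fold (2.23, SE 0.14, adjusted p = 9.79e-08 in edgeR), and iCarP+/Light+ exceeded MI 1.41-fold (0.50, SE 0.13, adjusted p = 0.0232 in edgeR). This smaller step is the least firm of the 4 that passed: it lost the threshold when MI rat 3 (0.50), MI rat 5 (0.45), iCarP+/Light+ rat 2 (0.45) or iCarP+/Light+ rat 5 (0.35) was left out. It also did so with scaling by total counts alone (0.22) and with a replicate block for rat number (0.39).

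Fosl2 (ENSRNOG00000052357, chr6:25598936-25616995, minus strand) encodes Fra-2, the other Fos protein that lacks that domain. Sham rats had 4.84, 6.83, 4.40 and 6.78 CPM. MI rats had 17.6, 19.5, 7.78 and 21.5 CPM, and iCarP+/Light+ rats had 51.4, 102.4, 101.1 and 150.7 CPM. The groups did not overlap, although MI rat 4 stood just above the highest Sham rat. Fosl2 was 2.90-fold higher in MI than in Sham (1.53, SE 0.35, adjusted p = 0.00183 in edgeR) and another 6.11-fold higher in iCarP+/Light+ than in MI (2.61, SE 0.34, adjusted p = 2.01e-04 in edgeR). Treated rats thus stood 17.7-fold above Sham (4.15, SE 0.37, adjusted p = 7.01e-07 in edgeR). The step from MI to iCarP+/Light+ kept its side of the threshold with any 1 rat left out, between 2.28 and 2.83.

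Junb (ENSRNOG00000042838, chr19:26092974-26094756, minus strand), a Jun protein that activates AP-1 sites less than Jun does and rises early with Fos, moved farthest over the 3 groups. Sham rats had 57.3, 39.1, 28.4 and 48.6 CPM. MI rats had 195.2, 224.4, 256.6 and 167.4 CPM, and iCarP+/Light+ rats had 710.7, 1029, 1284 and 1486 CPM. The rats of the 3 groups were well apart. The rise from Sham to MI was 4.86-fold (2.28, SE 0.26, adjusted p = 6.09e-06 in edgeR), and that from MI to iCarP+/Light+ was 5.35-fold (2.42, SE 0.26, adjusted p = 4.71e-05 in edgeR). Between Sham and iCarP+/Light+ the difference was 26.0-fold (4.70, SE 0.29, adjusted p = 3.96e-08 in edgeR), the largest of the 10 members in that comparison. With any 1 rat left out, the step from MI to iCarP+/Light+ was 2.18 to 2.58.

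Jun (ENSRNOG00000026293, chr5:114011189-114014277, minus strand), the founding Jun gene, was already abundant in Sham hearts. Sham rats had 229.4, 158.7, 130.6 and 165.6 CPM, MI rats 170.5, 163.7, 179.2 and 162.5 CPM, and iCarP+/Light+ rats 193.3, 219.9, 249.0 and 290.3 CPM. MI rats lay within the range of Sham, and treated rats lay above MI, with rats 4 and 5 also above Sham rat 1. MI against Sham gave −0.02 (SE 0.17, adjusted p = 0.934 in edgeR), a difference whose sign turned with DESeq2 size factors (0.05) and with total counts alone (0.56, past the threshold), a scaling that moved the median of all genes in this comparison to 0.52. For iCarP+/Light+ against MI the value was 0.49 (SE 0.17, adjusted p = 0.0702 in edgeR), which passed without Sham rat 1 (0.49) or without iCarP+/Light+ rat 1 (0.58). Against Sham, treated rats were 0.48 higher (SE 0.17, adjusted p = 0.0221 in edgeR), and the call was lost without Sham rat 2, 3 or 5 or iCarP+/Light+ rat 5, with values from 0.37 to 0.46. That call was also lost with a replicate block for rat number (0.41).

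Jund (ENSRNOG00000019568, chr16:20485029-20486707, minus strand), the Jun gene that most tissues express steadily, had the smallest difference of the 10 members between iCarP+/Light+ and Sham. Sham rats had 256.9, 213.5, 176.9 and 217.7 CPM, MI rats 227.8, 212.7, 261.6 and 190.7 CPM, and iCarP+/Light+ rats 236.3, 275.6, 310.4 and 286.0 CPM. The 3 groups overlapped. The differences were 0.05 for MI against Sham (SE 0.14, adjusted p = 0.789 in edgeR), 0.31 for iCarP+/Light+ against MI (SE 0.14, adjusted p = 0.178) and 0.36 for iCarP+/Light+ against Sham (SE 0.14, adjusted p = 0.0366). With total counts alone the first was 0.62 and passed. The last passed in 6 of the 12 fits with 1 rat left out: it was lost without Sham rat 2, 3 or 5 and without iCarP+/Light+ rat 2, 4 or 5. It was also lost with a replicate block for rat number (0.26).

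Atf3 (ENSRNOG00000003745, chr13:109817728-109849632, minus strand), a stress-induced partner of Jun proteins that often represses, had 21.1, 9.56, 19.1 and 28.7 CPM in Sham rats. MI rats had 73.8, 50.0, 94.1 and 52.0 CPM, and iCarP+/Light+ rats had 52.3, 49.3, 61.5 and 73.0 CPM. The ligated groups lay above Sham and overlapped each other. MI was 3.44-fold above Sham (1.78, SE 0.29, adjusted p = 1.43e-04 in edgeR), and iCarP+/Light+ against MI gave −0.19 (SE 0.28, adjusted p = 0.728 in edgeR).

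Egr1 (ENSRNOG00000019422, chr18:27657628-27661429, plus strand), which SRF is known to drive through CArG boxes, had 35.3, 19.9, 15.9 and 17.7 CPM in Sham rats. MI rats had 51.3, 64.6, 45.6 and 66.3 CPM, and iCarP+/Light+ rats had 126.1, 137.3, 105.0 and 200.7 CPM. The groups did not overlap, and the steps were of like size. MI was 2.56-fold above Sham (1.36, SE 0.26, adjusted p = 4.95e-04 in edgeR), and iCarP+/Light+ was 2.50-fold above MI (1.32, SE 0.25, adjusted p = 0.00353 in edgeR), between 1.03 and 1.44 with any 1 rat left out.

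Egr2 (ENSRNOG00000000640, chr20:22454463-22459025, minus strand), also known as Krox20 and needed for myelination, had 3.11, 1.57, 1.37 and 1.18 CPM in Sham rats. MI rats had 50.4, 28.6, 23.8 and 21.5 CPM, and iCarP+/Light+ rats had 45.6, 23.9, 22.7 and 35.9 CPM. It made the largest step of the 10 from Sham to MI, 17.1-fold (4.10, SE 0.39, adjusted p = 1.39e-06 in edgeR). Both ligated groups then shared 1 range, with a difference of 0.04 (SE 0.31, adjusted p = 0.953 in edgeR) whose sign turned with DESeq2 size factors and with total counts alone (−0.23). Egr1 and Egr2, both with a CArG box in the window searched, thus had different values for iCarP+/Light+ against MI, a difference between the genes that was not tested.

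**Figure D2:**
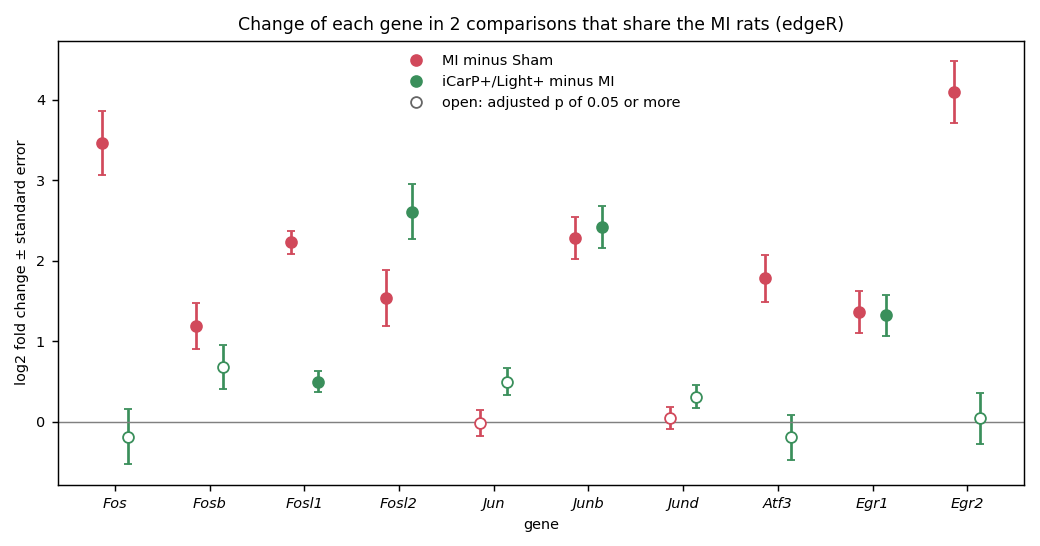
Log2 fold change with its standard error for each member, for MI minus Sham and for iCarP+/Light+ minus MI, which share the MI rats. Open symbols have an adjusted p of 0.05 or more. Fos, Atf3 and Egr2 have a large first step and a second near 0, while Fosl2, Junb and Egr1 have both.

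Levels of different genes were compared per kb of the gene length listed in the table. Jund led in Sham (128.8 ± 19.5 CPM per kb, SD, n = 4), ahead of Jun (55.4 ± 13.5) and Junb (24.3 ± 6.98). Fosl2 (7.68 ± 1.71), Egr1 (7.09 ± 2.83) and Atf3 (6.74 ± 2.70) did not differ beyond their spread, and Fosl1 (3.48 ± 0.576), Fos (2.05 ± 1.61), Fosb (0.594 ± 0.170) and Egr2 (0.559 ± 0.273) came last. In MI rats Junb (118.3 ± 21.5) had drawn level with Jund (132.9 ± 17.7) within the spread, and Jun followed at 54.7 ± 2.49. Atf3 (23.2 ± 7.14), Fos (22.8 ± 3.64), Fosl2 (22.3 ± 8.18), Egr1 (18.2 ± 3.23) and Fosl1 (16.3 ± 1.28) came next, each within the spread of its neighbour in that order, above Egr2 (9.61 ± 4.08) and Fosb (1.36 ± 0.475). In iCarP+/Light+ rats Junb stood first at 632 ± 188 CPM per kb. Jund (165.0 ± 18.4) and Fosl2 (136 ± 54.5) overlapped in their spread, as did Fosl2 and Jun (77.1 ± 13.5), and they were followed by Egr1 (45.5 ± 13.2), Fosl1 (23.0 ± 3.04), Atf3 (20.3 ± 3.66), Fos (20.0 ± 4.37), Egr2 (9.91 ± 3.35) and Fosb (2.18 ± 0.454), of which Fosl1, Atf3 and Fos did not differ beyond their spread. The length listed for Fosl2 is 744 bases, a multiple of 3 and short for a gene spanning 18060 bases, and may hold coding sequence only, so its level per kb is less sure than the others.

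The make-up of both families differed between the groups. The share of each gene in its family's summed level per kb was tested over the 70 arrangements of 4 rats against 4 (exact permutation test, two-sided), where the smallest possible p is 0.0286. In the Jun family, the Junb share was 11.5% ± 1.45 (SD, n = 4) in Sham, 38.5% ± 2.59 in MI and 71.6% ± 4.09 in treated rats. Single rats spanned 9.74% to 12.9%, 36.1% to 41.2% and 66.2% to 75.9%, with no overlap. Jund fell from 62.1% ± 2.39 to 43.5% ± 1.52 and 19.5% ± 3.27, and Jun from 26.4% ± 1.50 to 18.0% ± 1.70 and 8.97% ± 0.979. All 9 differences in the Jun family had an exact permutation p of 0.0286, adjusted to 0.0353 over 21 tests, and the adjusted p stayed below 0.05 with any 1 rat left out. Neither Jun nor Jund passed as lower in CPM, and the family sum went from 208 ± 39.5 CPM per kb in Sham to 305.9 ± 40.1 in MI and 874.5 ± 216 in iCarP+/Light+ rats.

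In the Fos family, Fosl2 held 55.8% ± 7.94 (SD, n = 4) of the sum in Sham rats. Its share was lower in MI, 34.7% ± 9.98, and reached 73.6% ± 6.61 in iCarP+/Light+ rats. These 3 differences passed, with an exact permutation p of 0.0286 (adjusted 0.0353). The Fos family shares depend on the short length listed for Fosl2. In shares of CPM not divided by length, Fosl2 held 33.9% ± 6.44, 19.3% ± 6.34 and 54.9% ± 7.96 in the same order of groups. The 3 differences passed there too. If reads were counted over that short length alone, undivided shares would understate Fosl2, and which form is nearer cannot be told. The Fos share was 14.4% ± 10.6 in Sham, 36.7% ± 7.39 in MI and 11.5% ± 2.59 in treated rats. It was lower in iCarP+/Light+ than in MI (exact permutation p = 0.0286, adjusted 0.0353), whereas MI against Sham had p = 0.0571 (adjusted 0.0632, exact permutation test), with Sham rat 1 in the range of MI, and iCarP+/Light+ against Sham had p = 0.857 (exact permutation test). Fosl1 held 25.4% ± 2.17, 26.4% ± 4.75 and 13.6% ± 3.88 of the sum per kb in Sham, MI and treated rats, and Fosb held 4.48% ± 1.82, 2.17% ± 0.676 and 1.26% ± 0.249. Both were lower in iCarP+/Light+ than in either other group, and neither passed in MI against Sham, with adjusted p = 0.690 for Fosl1 and 0.0632 for Fosb in the exact permutation test. In shares not divided by length, the differences from MI no longer passed (exact permutation test, adjusted p = 0.0667 for Fosl1 and 0.253 for Fosb), and Fosb passed in MI against Sham (−7.61 points, adjusted p = 0.0375). The summed level was 13.8 ± 2.53 CPM per kb in Sham, 62.8 ± 7.97 in MI and 181.5 ± 61.1 in treated rats. In all, 17 of the 21 tests passed, and as the shares of a family add up to 100 they are not independent. With 1 rat left out, the Fosl2 and Fos shares in iCarP+/Light+ against MI passed in all 12 cases. The Fosl2 share in MI against Sham was lost without any 1 of the MI rats (−23.2 to −16.1 points), and in iCarP+/Light+ against Sham without any 1 Sham rat or iCarP+/Light+ rat 2, 4 or 5 (14.2 to 20.5 points). Against MI, the Fosb share was lost without MI rat 3 or any 1 treated rat (−1.02 to −0.63 points), and the Fosl1 share without MI rat 1 or 4 or iCarP+/Light+ rat 2, 4 or 5 (−12.8 to −11.3 points). Against Sham, the Fosb share was lost without any 1 treated rat (−3.33 to −3.16 points) and the Fosl1 share without Sham rat 2, 3 or 5 (−11.8 to −11.0 points). In all of these lost cases the rats of the groups compared still did not overlap. The test then has fewer arrangements and coarse steps, so a loss does not show that a result rests on that rat. Without Sham rat 1, Fos (27.5 points) and Fosb (−2.83 points) passed in MI against Sham.

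**Figure D3:**
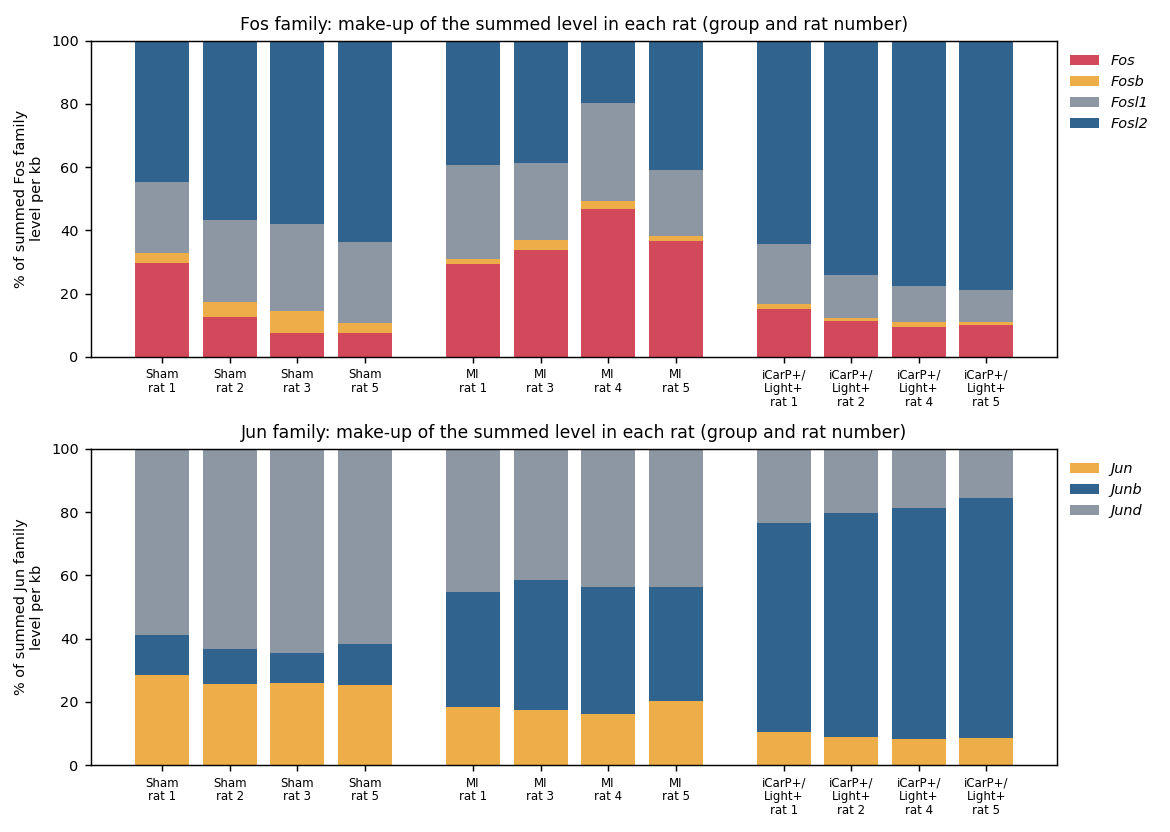
Make-up of the summed Fos family level (top) and Jun family level (bottom) in each of the 12 rats, in percent of the summed CPM per kb, with 1 bar per rat. Junb makes up 9.74% to 12.9% of the Jun family in Sham rats and 66.2% to 75.9% in iCarP+/Light+ rats, and Fosl2 makes up 64.2% to 78.8% of the Fos family in iCarP+/Light+ rats, or 43.6% to 61.4% without division by the listed lengths, of which that of Fosl2 is in doubt.

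Neutrophil markers were the list that, like Junb and Fosl2, was higher at both steps. The summed level of 6 neutrophil genes was 6.36 to 11.2 CPM in Sham rats, 324 to 627 CPM in MI rats and 2184 to 6594 CPM in iCarP+/Light+ rats, and all 6 passed as higher at both steps. In iCarP+/Light+ rats 1, 2, 4 and 5 the neutrophil sum was 2184, 5502, 3943 and 6594 CPM. Its order among those 4 rats is the order of Fosl2, for Junb rats 2 and 4 change places, and for Fosl1 and Egr1 rat 4 rather than rat 1 is lowest. MI rat 4 had the highest neutrophil sum of its group (627 CPM), with the highest Junb and the lowest Fosl2 and Egr1. Sham rat 3 had the highest sum of its group (11.2 CPM), with the lowest Fosl1, Fosl2, Junb and Egr1. The 6 macrophage or monocyte genes found summed to 363 to 577, 3722 to 6578 and 2798 to 4591 CPM in Sham, MI and iCarP+/Light+ rats. Against MI, iCarP+/Light+ rats had 1 of these higher and 1 lower (median −0.42). None of the 8 cardiomyocyte genes passed in iCarP+/Light+ against MI by edgeR (median log2 fold change 0.07). Of the 6 red blood cell genes, 4 passed as higher in the treated rats, with sums of 6255 to 17552 CPM beside 2535 to 7010 CPM in MI rats. Fibroblast (6 genes), endothelial (5) and smooth muscle (4) markers had 1, 0 and 0 genes higher and none lower in that comparison, and of the 4 T or NK cell genes none was higher and 1 was lower (median log2 fold change −0.86), with sums of at most 34.3 CPM in any rat. No marker outside the atrial list lacked counts in a whole group. The part of any cell type in the levels of the 10 members was not tested.

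**Figure D4:**
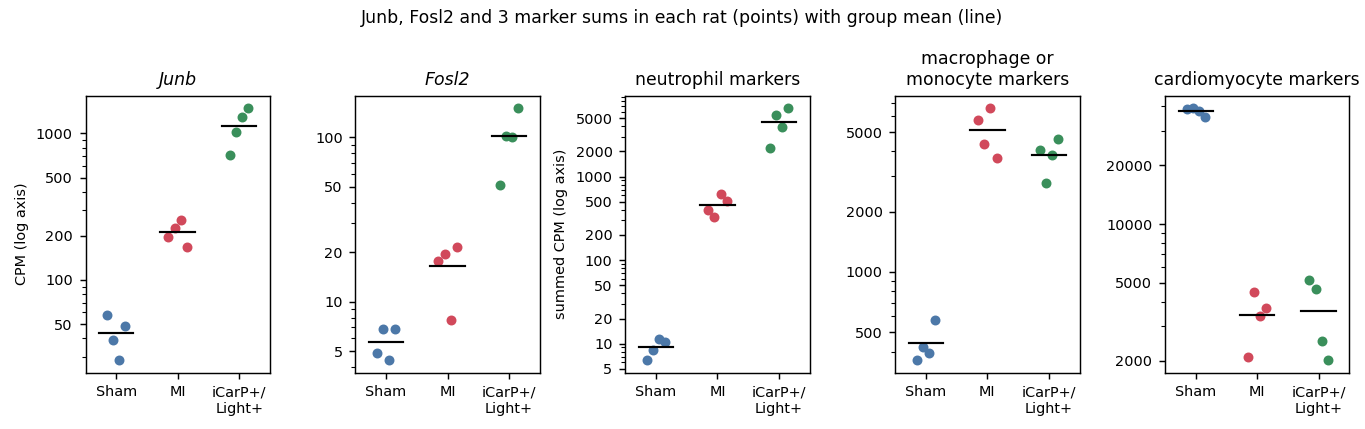
Junb, Fosl2 and the summed level of neutrophil, macrophage or monocyte, and cardiomyocyte markers in each rat, in CPM on log axes, with a line at the group mean of 4 rats. Neutrophil markers, Junb and Fosl2 rise over the 3 groups without overlap, macrophage markers overlap between MI and iCarP+/Light+, and so do cardiomyocyte markers.

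The deviation of each rat from its group was compared between Fos and the other members. After removal of the group means from log2 CPM, Fos and Egr1 had Pearson's r = 0.82 over 12 rats (exact permutation within groups, p = 0.00347, adjusted 0.0313 over the 9 other members) and Spearman's rho = 0.76 (p = 0.0175, adjusted 0.158, exact permutation). Without the 2 rats farthest from the median of Fos, r was 0.62. Much of the relation rests on Sham rat 1, which had the highest Fos and Egr1 of its group: without it r was 0.60, and with any 1 rat left out r was 0.60 to 0.88 and passed in 4 of 12 cases. No other member passed. Jun gave r = 0.78 (p = 0.0294, adjusted 0.132, exact permutation), which fell to 0.32 without the 2 farthest rats. For the rest r was 0.56 for Junb and Jund, 0.41 for Egr2, 0.29 for Fosl1, 0.12 for Fosl2, −0.12 for Fosb and −0.14 for Atf3.

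**Figure D5:**
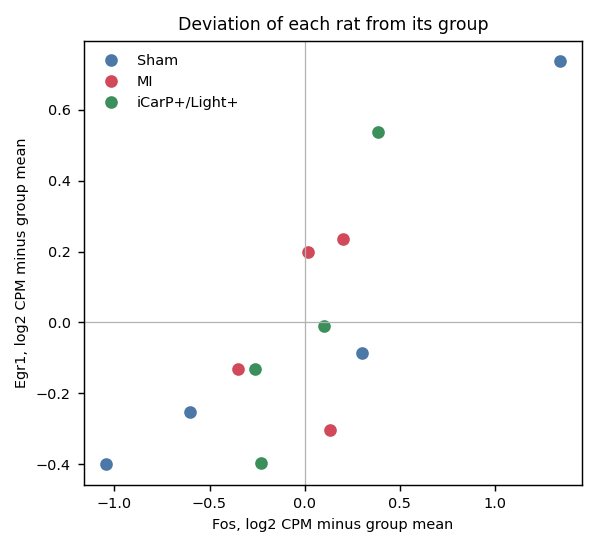
Deviation of each rat from its group mean in log2 CPM, for Fos on the x axis and Egr1 on the y axis, with 1 point per rat coloured by group. The point at the top right is Sham rat 1, and r over the 12 rats is 0.82.

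The other genes of the response were followed in 4 lists, whose counts stand beside 30.2% higher and 33.6% lower of all genes in MI against Sham and 11.6% and 2.01% in iCarP+/Light+ against MI. Of 24 other immediate-early genes, 22 could be tested. In MI against Sham 14 were higher, 2 lower and 6 did not pass (median log2 fold change 0.79), and in iCarP+/Light+ against MI 15 were higher, 1 lower and 6 did not pass (median 1.08). In MI rats Ccn2 rose from 51.1 ± 15.9 to 486.9 ± 36.5 CPM (3.25, adjusted p = 3.68e-07 in edgeR), Ccn1 by 2.69 (adjusted p = 7.37e-08) and Gadd45b by 1.79 (adjusted p = 1.57e-04). Ccn1 and Ccn2 encode matricellular proteins, and Gadd45b a stress sensor. Klf4 fell by 1.04 (adjusted p = 1.45e-05 in edgeR) and Klf2 by 0.43 (adjusted p = 0.0369 in edgeR), both Krüppel-like factors of endothelium. All 5 endothelial markers were lower in the same comparison (median −0.73), with sums of 1442 to 1645 CPM in Sham rats and 649 to 1008 CPM in MI rats, and 5 of 6 fibroblast markers were lower (median −1.70). Their part in these values was not tested. In iCarP+/Light+ rats Ier3 rose from 64.5 ± 20.4 to 353.3 ± 93.6 CPM (2.45, adjusted p = 4.29e-05 in edgeR), and Csrnp1 rose by 2.14 and Zfp36 by 2.11. Zfp36 encodes tristetraprolin, which speeds the decay of cytokine transcripts. Ccn2 alone of this list was lower in iCarP+/Light+ than in MI, at 249.2 ± 72.5 CPM (−0.97, adjusted p = 0.0150 in edgeR).

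Among 18 other basic leucine zipper genes, 10 were higher in MI than in Sham, 1 was lower and 7 did not pass (median 0.58). Batf, an AP-1 partner of lymphoid and myeloid cells, rose from 0.309 ± 0.325 to 6.96 ± 2.60 CPM (4.46, adjusted p = 3.60e-05 in edgeR). Batf3 rose by 2.54, while Atf5 fell by 0.46 (adjusted p = 0.0236 in edgeR). In iCarP+/Light+ against MI 10 were higher, none was lower and 8 did not pass (median 0.56). Cebpb, a factor of myeloid and acute-phase genes, rose from 264.1 ± 96.7 to 1268 ± 338 CPM (2.26, adjusted p = 1.29e-04 in edgeR). Ddit3, the stress factor CHOP, rose by 1.98 and Crem, a cAMP-responsive factor, by 1.95.

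Of 18 kinases, SRF cofactors and Egr corepressors tested, 3 were higher in MI than in Sham, 6 were lower and 9 did not pass (median −0.03), a share of lower genes close to that of all genes. Nab2, a corepressor that Egr proteins induce, rose from 9.68 ± 1.78 to 37.5 ± 4.47 CPM (1.95, adjusted p = 1.90e-06 in edgeR), Map2k1 rose by 0.90 and Mrtfa by 0.38. Elk1, a partner of SRF, fell from 66.5 ± 2.70 to 21.6 ± 2.28 CPM (−1.62, adjusted p = 7.37e-08 in edgeR), Mapk9 fell by 0.82 and Map2k7 by 0.58. In iCarP+/Light+ against MI, 3 were higher and 15 did not pass (median 0.14). Nab2 reached 87.7 ± 22.4 CPM (1.23, adjusted p = 5.36e-04 in edgeR), Map2k1 rose by 0.73 and Nab1 by 0.72. These are transcript levels, and kinase activity was not measured.

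Textbook targets of AP-1 or Egr1 were the list with the largest median, 3.76 in MI against Sham, where 18 of 22 were higher, 1 was lower and 3 did not pass. In that comparison 6 of 6 neutrophil markers (median 5.24) and 5 of 6 macrophage or monocyte markers (median 2.53) were higher and 8 of 8 cardiomyocyte markers were lower (median −3.27), and their part in the values of this list was not tested. Spp1 (osteopontin) rose from 4.31 ± 1.22 to 9651 ± 4200 CPM (11.12, adjusted p = 3.67e-08 in edgeR), and Mmp9 rose from 0.490 ± 0.380 to 27.4 ± 3.51 CPM (5.79, adjusted p = 2.68e-07 in edgeR). Il6 rose to 6.13 ± 3.67 CPM from a Sham mean under 3 counts per library, so no fold is given. Vegfa fell by 1.18, from 278.6 ± 28.0 to 123.0 ± 66.4 CPM (adjusted p = 0.00490 in edgeR). In iCarP+/Light+ against MI, 14 were higher, none was lower and 8 did not pass (median 0.91). Il1b rose from 42.9 ± 14.7 to 1691 ± 571 CPM (5.30, adjusted p = 1.77e-06 in edgeR), Ptgs2, the inducible cyclooxygenase, rose by 5.27 and Mmp9 by 4.93. Myeloid cells express Il1b, Ptgs2 and Mmp9 strongly, and all 6 neutrophil markers were higher in the same comparison (median 3.22), and their part in these values was not tested. Against Sham, iCarP+/Light+ rats had 18 of 22, 15 of 18, 7 of 18 and 20 of 22 genes of the 4 lists higher, in the order given, and 1, 1, 5 and 0 lower, beside 33.5% and 33.0% of all genes. The kinase, cofactor and corepressor list is near those shares.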

How the data were processed

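RNA-seq of 12 rats was used, 4 per group. The authors deposited raw read counts per gene, with each gene's symbol, position and length. The submitters' processing notes name HISAT2, featureCounts and rn6, while the annotation release and strand setting are not given in the sources used here. None of the 10 members overlaps another listed gene. The test was edgeR 4.0.16 in R 4.3.3 (quasi-likelihood test, TMM, filterByExpr with a minimum count of 10, 1 mean per group over all 12 rats, no replicate block, Benjamini-Hochberg over 15101 genes, threshold 0.05). The script was tested on simulated data. Alternatives used DESeq2 1.42.0, limma 3.58.1 (voom), other scalings and filters, a replicate block and each rat left out in turn. The 18 within-group pairs of libraries differed by a chi-square of 14.8 to 119 per gene (1 for counting noise alone), so none was a copy. CPM are counts per TMM-scaled library. The members and all lists were chosen with earlier results of these data known. Of each list, up to 3 genes with the largest and 3 with the smallest log2 fold change among those past the threshold were named, of which 1 is not reported here. For Fos and Fosl1, the 5 protein-coding genes of at least 5 CPM with the highest correlation of log2 CPM (prior count 2) were named. Shares do not depend on library scaling. Promoters came from RefSeq (GRCr8). A symbol was not found for Mrtfb, Itgam, Klrb1a and Pecam1. Plots were drawn with matplotlib 3.10.9.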

Additional observations from a re-analysis of the deposited data

Results flagged for a closer look

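Among 51 groups of 4 rats, in levels and shares of the 10 members, a single rat stood apart from the other 3 of its group in 2, by the gap to the nearest rat as a share of the group's range. Chance gives about 2.55 such cases. In MI rat 4 the Fosl2 share of the Fos family was 19.8%, beside 38.8% to 40.9% in the other MI rats (ratio 0.903). In Sham rat 1 the Jun share of the Jun family was 28.6%, beside 25.5% to 25.8% in the other Sham rats (ratio 0.880).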

How the results depend on the processing

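The number of members past the threshold was 8 to 10 for MI against Sham, 3 to 4 for iCarP+/Light+ against MI and 8 to 10 for iCarP+/Light+ against Sham over 9 alternatives, and of 270 fold changes of single members 252 kept their direction and side of the threshold. Leaving out 1 rat at a time, 332 of 360 did. Fos, Fosb, Fosl1, Fosl2, Junb, Atf3, Egr1 and Egr2 in MI against Sham, and Fosl2, Junb and Egr1 in iCarP+/Light+ against MI, passed in all of these. The cause of the changes listed next was not tested. The sign turned for members near 0. Jun, MI against Sham, was 0.0528 with DESeq2 size factors and with DESeq2, 0.56 with total counts alone, 0.0117 with limma-voom, 0.0128 with no filter beyond 1 count, 0.0614 with 10 counts in every sample, 0.0151 without mitochondrial genes, 0.12 with the compared groups only and −0.12 to 0.16 with 1 rat left out. Egr2, iCarP+/Light+ against MI, was −0.00318 with DESeq2 size factors, −0.23 with total counts alone, −0.00247 with DESeq2, −0.00862 with 10 counts in every sample and −0.18 to 0.38 with 1 rat left out. With 1 rat left out, Jund in MI against Sham was −0.0362 to 0.15 and Atf3 in iCarP+/Light+ against MI was −0.39 to 0.00708.

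Rats with the same number are different animals. Their deviations from the group means correlated at −0.15 to 0.07 in 9 pairs, beside −0.15 to 0.20 in 39 pairs with other numbers. Over all genes the same number thus brought no closer likeness, and an effect shared by number in fewer genes was not tested. With a replicate block, 1298 genes passed in iCarP+/Light+ against MI instead of 2051. Under the block Jund, MI against Sham, was −0.0113, and Fosl1, iCarP+/Light+ against MI (0.39), Jun (0.41) and Jund (0.26), iCarP+/Light+ against Sham, no longer passed. With total counts alone 3936 genes passed in iCarP+/Light+ against MI, of which 30.6% were higher instead of 85.2%, and the median of all genes was 0.52, −0.25 and 0.33 in MI against Sham, iCarP+/Light+ against MI and iCarP+/Light+ against Sham.

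In shares of counts not divided by length, Fosb was −7.61 points in MI against Sham (now past) and −1.28 in iCarP+/Light+ against MI (not past), and Fosl1 was −2.11 and −9.93 points (both not past). With 1 rat left out, the difference in share, in points, was 18.96 to 27.47 for Fos, −2.83 to −1.49 for Fosb, −0.44 to 2.97 for Fosl1 and −24.8 to −16.1 for Fosl2 in MI against Sham. In iCarP+/Light+ against MI it was −1.10 to −0.63 for Fosb and −14.8 to −11.3 for Fosl1. In iCarP+/Light+ against Sham it was −5.11 to 2.32 for Fos, −3.74 to −2.40 for Fosb, −13.6 to −10.6 for Fosl1 and 14.2 to 20.97 for Fosl2. With 1 rat left out, the within-group correlation with Fos turned sign for Fosb (−0.24 to 0.37), Egr2 (−0.15 to 0.64), Fosl1 (−0.10 to 0.70), Fosl2 (−0.0363 to 0.38) and Atf3 (−0.46 to 0.0527). At this depth, 3 counts per library are taken as the least that can be told from 0, a floor that covers counting error only.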

Other observations

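Over all 12 rats and 10722 protein-coding genes with a symbol, the genes whose log2 CPM followed that of Fos most closely were Tbp (Pearson's r 0.98), Mvd (0.98), Hbegf (0.97), Tuba1c (0.97) and Ercc1 (0.97). Hbegf encodes a growth factor of the EGF family, Tbp the TATA-binding protein and Mvd an enzyme of the mevalonate pathway. For Fosl1 they were Mt2A (a metallothionein), Glipr1, Sdc4 (a heparan sulfate proteoglycan of focal adhesions), Itgad and Il17ra, each with r of 0.99. These values describe the pattern over 3 groups that differ strongly, with groups and libraries shared by all genes, and carry no test.

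The rats of a group did not hold 1 order over the members. iCarP+/Light+ rat 5 had the highest level of its group in 8 of the 10 genes and rat 1 the lowest in 6. Sham rat 1 had the highest level in 6 and Sham rat 3 the lowest in 7. In MI no rat was highest in more than 4.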
